A study of Bos taurus with 12 samples.

Results

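The genes described here are 36 genes of the sarcomere and the muscle fiber, chosen by name for their role in striated muscle. The choice was made with earlier results of these data known. Of these 36 genes, 33 had a row of their own in the mRNA table, which held 33714 rows under 32091 names. TTN, TCAP and CHRNG were listed only in rows joined with neighbouring genes and are given apart. Intramuscular preadipocytes were isolated from the longissimus dorsi, a back muscle, of newborn Qinchuan cattle, and RNA was sequenced on 4 days of adipogenic induction, with 3 libraries each at 0 d (not yet induced), 3 d, 6 d and 9 d. The induced cells received a cocktail of 3-isobutyl-1-methylxanthine (IBMX), dexamethasone and insulin, followed by medium with insulin. The sources call the libraries of a day biological replicates but do not say that they came from separate animals, so the p-values measure the spread between these libraries. The question asked of each comparison was how the level of these genes at 3, 6 and 9 d compared with 0 d, and between successive days.

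The sarcomere is the contractile unit of striated muscle, in which thick filaments of myosin slide along thin filaments of actin, nebulin, tropomyosin and troponin. Titin spans from the Z-disc, where thin filaments are anchored, to the M-band, where thick filaments are cross-linked, and calcium released from the sarcoplasmic reticulum through the ryanodine receptor starts contraction. These genes are switched on when myoblasts leave the cell cycle and fuse, and preparations of preadipocytes from muscle can also contain myogenic cells.

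Levels are given as FPKM, fragments scaled to the length of the transcript and to the mapped fragments of the library, a value per length that does not carry the read depth, so the precision of low values is unknown from these values. The summed FPKM of the 33 genes was 2863, 2844 and 3048 in the 0 d libraries, followed by 1096, 1212 and 1214 at 3 d, by 1057, 1006 and 1072 at 6 d and by 1017, 957 and 1074 at 9 d. All 0 d libraries lay above the others. Without ACTC1 the sum was 1955, 1978 and 2089.6 at 0 d, followed by 606, 704 and 696 at 3 d, by 806, 775 and 820.4 at 6 d and by 785, 738 and 825 at 9 d. The libraries of 3 d were then lowest, whereas with ACTC1 they lay above those of 6 and 9 d. From 3 d to 6 d the mean sum without ACTC1 rose from 669 to 800, and DES alone rose from 138 to 314. The order of 3 d and 6 d in that sum thus rests on DES and does not describe the set as a whole. In each 0 d library ACTC1 was the most abundant of the genes per length, and the genes together held between 0.218 and 0.231% of all FPKM. In bulk samples, fewer cells of a type and less RNA per cell cannot be told apart. Of the 33 genes, 30 reached a mean of 1 FPKM on at least 1 day, 30 had their highest mean at 0 d, and in 28 every 0 d library was above every other library. This order was also common elsewhere, among the 15402 rows with a mean of at least 0.1 FPKM. Every 0 d library was above every 3 d library in 5227 of them, above every 6 d library in 5144 and above every 9 d library in 5584. How many rows met all of these together was not counted. The lowest mean was at 3 d for 13 genes, at 6 d for 10, at 9 d for 9 and at 0 d for 1, TNNI2, whose mean at 9 d was the same (0.12 FPKM).

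**Figure D1:**
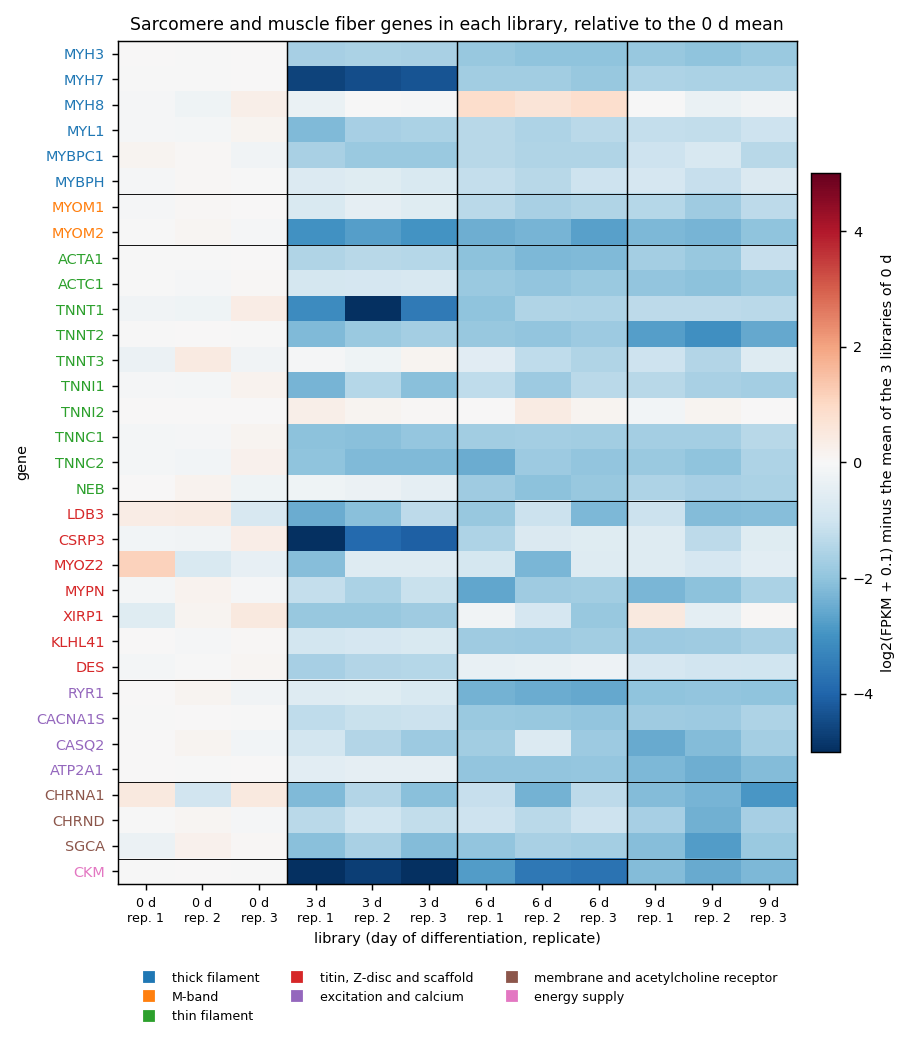
Heat map of the 33 genes (vertical axis, grouped by role) in the 12 libraries (horizontal axis, by day), with color giving log2(FPKM + 0.1) minus the mean of the 3 libraries of 0 d, where values past an end of the color scale take its end color. For 28 genes every 0 d library is above all later ones, and MYH7, CKM, CSRP3 and TNNT1 are lowest at 3 d. Of all 15402 rows tested, 5227 have every 0 d library above those of 3 d, 5144 above those of 6 d and 5584 above those of 9 d.

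Fold changes are differences of log2(FPKM + 0.1), which understates the change of genes with low values, and come with their standard error (SE). A gene was called when its absolute log2 fold change was over 1 and its adjusted p from limma, a linear model fitted over all genes tested, was under 0.05. A filter on low values, a mean of at least 0.1 FPKM, was passed by 32 of the 33 genes, so that counts below cover 32 genes and not the whole set. At 3 d against 0 d, 21 of 32 genes were called lower, where 15.2% of all 15402 rows tested were called lower, and 0 were called higher by limma, where 8.06% of all rows were (at an unadjusted p under 0.05, 0 higher and 28 lower). At 6 d against 0 d, 25 were called lower (7.97% of all rows) and 0 higher (3.39% of all rows) by limma, with 1 higher at an unadjusted p under 0.05. At 9 d against 0 d, 24 were called lower (7.47% of all rows) and 0 higher (3.41% of all rows) by limma, with 0 higher at an unadjusted p under 0.05. The median log2 fold change of the 32 genes was -1.47 at 3 d, -1.73 at 6 d and -1.66 at 9 d, and that of all rows tested was -0.06, -0.15 and -0.19. These comparisons share the 0 d libraries. A median-ratio rescaling of the libraries shifted the median of all rows up by 0.09, 0.14 and 0.16, and then 21, 23 and 22 of the genes were called lower and 0 higher.

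From 3 d to 6 d, 22 of the 32 genes were not called. MYH7, TNNT1, CSRP3, DES and CKM were called higher, 5 of 32, where 9.85% of all rows were called higher. ACTC1, NEB, TNNT3, RYR1 and ATP2A1 were called lower, also 5 of 32, where 9.23% of all rows were called lower. The median was 0.03, beside -0.09 over all rows. At an unadjusted p under 0.05, 9 were higher and 12 lower. The share of all rows at that unadjusted p was not counted for any comparison. This comparison shares the 3 d libraries with that of 3 d against 0 d, so a low value at 3 d enters both with opposite signs. From 6 d to 9 d, CKM was the 1 gene called higher (2.55% of all rows), a call that several alternatives given below ended, and 0 were called lower by limma (1.89% of all rows), with 8 higher and 5 lower at an unadjusted p under 0.05. The median from 6 d to 9 d was 0.06, beside -0.04 over all rows.

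**Figure D2:**
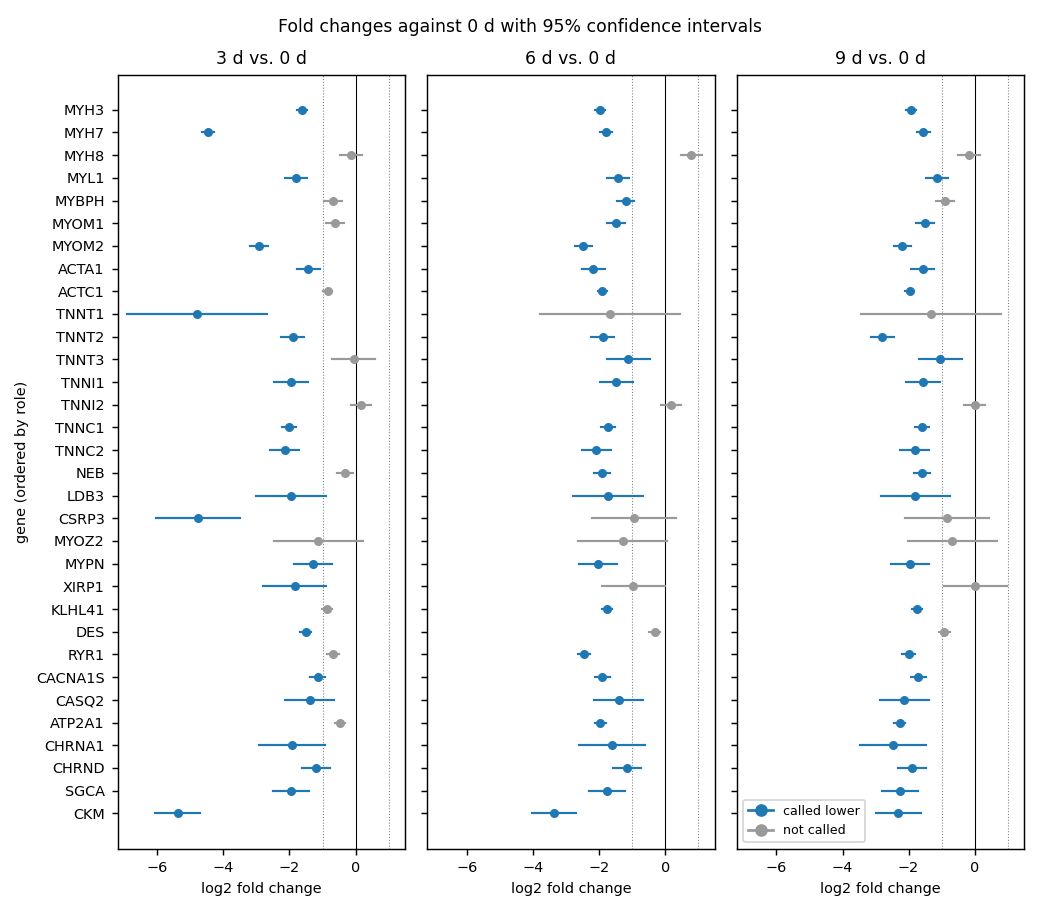
Log2 fold change at 3, 6 and 9 d against 0 d (horizontal axis) for each of the 32 genes tested (vertical axis), with bars for the 95% confidence interval from limma. Most points lie left of 0, with CKM farthest left at 3 d.

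Among the thick filament genes, MYH7, the slow and cardiac beta myosin heavy chain, had 74.4, 74.1 and 76.5 FPKM at 0 d, followed by 2.91, 3.35 and 3.67 at 3 d, by 22.7, 22.1 and 19.9 at 6 d and by 25.9, 25.3 and 24.95 at 9 d. It was high at 0 d, lowest at 3 d and intermediate at 6 and 9 d, with no overlap between successive days. Its level at 3 d was 22.1-fold lower than at 0 d on this scale, a log2 fold change of -4.47 (SE 0.0852, limma adjusted p = 1.28e-10), and the later days gave log2 fold changes of -1.80 (limma adjusted p = 1.83e-07) and -1.56 (limma adjusted p = 6.71e-07) against 0 d. From 3 d to 6 d it rose, a log2 fold change of 2.67 (SE 0.0852, limma adjusted p = 5.28e-09). MYH3, the embryonic myosin heavy chain, had 17.6, 17.4 and 17.7 FPKM at 0 d, followed by 5.5, 5.86 and 5.6 at 3 d, by 4.64, 4.31 and 4.26 at 6 d and by 4.69, 4.25 and 4.78 at 9 d. The 0 d libraries were highest, and the 6 and 9 d libraries overlapped each other. MYH3 fell in each comparison with 0 d, by 1.62, 1.97 and 1.92 on the log2 scale, the last with SE 0.0690 and limma adjusted p = 4.33e-08.

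MYH8, the perinatal myosin heavy chain, had 1.39, 1.27 and 1.8 FPKM at 0 d, followed by 1.16, 1.47 and 1.4 at 3 d, by 2.77, 2.37 and 2.75 at 6 d and by 1.46, 1.16 and 1.3 at 9 d. The 6 d libraries were above all others, and those of 0, 3 and 9 d overlapped. MYH8 was not called against 0 d, where its log2 fold change at 6 d was 0.79 (SE 0.148, limma adjusted p = 0.00208), nor from 6 d to 9 d with -0.96, a value that reached -1.03 without 6 d replicate 2 and -1.04 without 9 d replicate 1 and was then called. MYL1, an essential light chain of fast fibers, had 672, 655 and 756 FPKM at 0 d, followed by 151, 221 and 231 at 3 d, by 264, 237 and 271 at 6 d and by 305, 292 and 342 at 9 d. Every 0 d library lay above all others, and MYL1 was the most abundant thick filament gene per length. It fell by 1.81 at 3 d, 1.43 at 6 d and 1.15 at 9 d on the log2 scale, and the call at 9 d ended under rescaling, where the fold change was -0.97. Reads of near-identical myosin genes may have been shared between rows, so the values of MYH3 and MYH8, which lie in one cluster on chromosome 19, are uncertain.

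MYBPH, a myosin binding protein, had 19.97, 21.5 and 20.6 FPKM at 0 d, followed by 12.98, 13.4 and 12.3 at 3 d, by 8.97, 7.95 and 10.04 at 6 d and by 11.6, 9.19 and 12.6 at 9 d. The days 0, 3 and 6 d did not overlap, and 9 d overlapped 3 and 6 d. A call was made at 6 d, a fall with limma adjusted p = 3.34e-05 and a log2 fold change of -1.20, and not at 3 d (-0.68) or 9 d (-0.90). MYBPC1, slow myosin binding protein C, was the gene that did not pass the filter, with 0.3, 0.28 and 0.22 FPKM at 0 d, followed by 0.02, 0 and 0 at 3 d, by 0.04, 0.03 and 0.03 at 6 d and by 0.08, 0.11 and 0.04 at 9 d. Fitted without the filter, MYBPC1 was called lower at 3 d (-1.78, limma adjusted p = 6.41e-06), 6 d (-1.45, limma adjusted p = 6.33e-05) and 9 d (-1.07, limma adjusted p = 0.000559). At the M-band, MYOM2 had 112, 121 and 111 FPKM at 0 d, followed by 13.9, 16.9 and 14.5 at 3 d, by 21.3, 22.8 and 17.6 at 6 d and by 24.1, 23.1 and 27.98 at 9 d. The 3 d libraries were lowest and the 0 d libraries stood far above the rest. It fell at 3 d, a log2 fold change of -2.92 (SE 0.115, limma adjusted p = 1.52e-08), and by 2.48 at 6 d and 2.19 at 9 d. MYOM1, the other myomesin, had 28.4, 31.4 and 30.1 FPKM at 0 d, followed by 17.4, 21.7 and 19.4 at 3 d, by 11.7, 9.67 and 10.6 at 6 d and by 11, 8.74 and 11.9 at 9 d. Its 3 d libraries lay between those of 0 d and those of 6 and 9 d, and it was called lower at 6 d (-1.49) and 9 d (-1.51) but not at 3 d (-0.62).

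**Figure D3:**
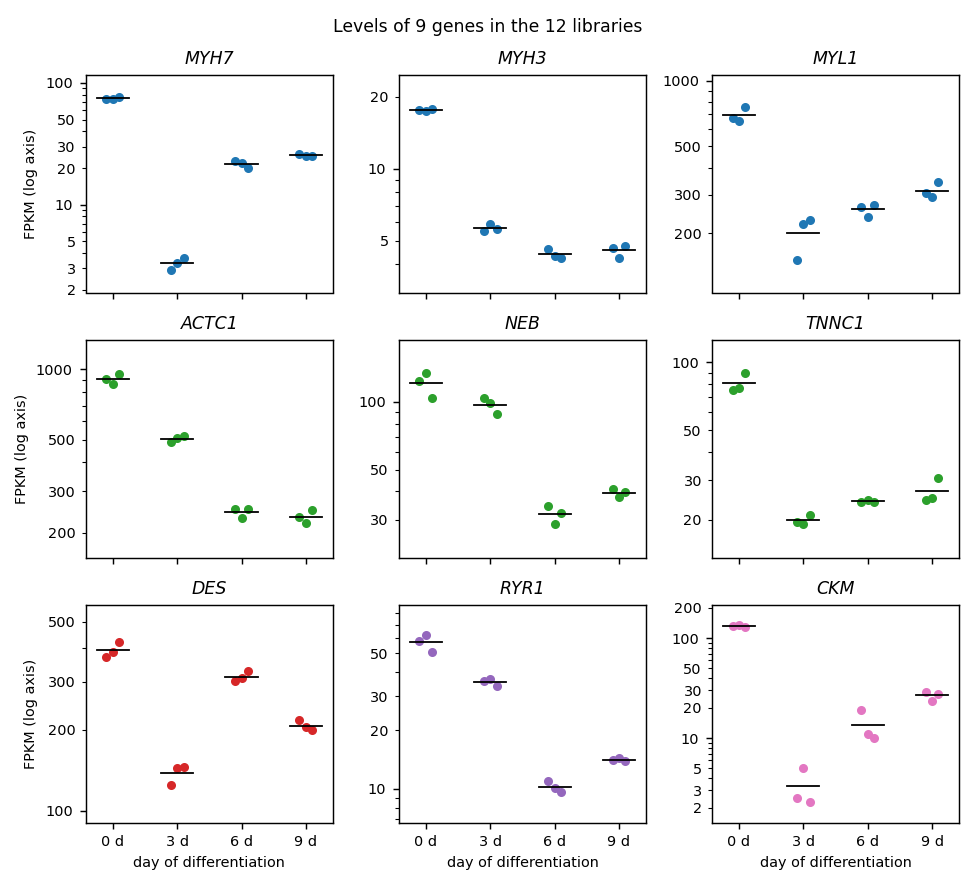
FPKM on a log axis (vertical) in each library at 0, 3, 6 and 9 d (horizontal) for 9 genes, where points are libraries and lines are means. MYH7 and CKM are lowest at 3 d, and ACTC1, NEB and RYR1 are lower at 6 d than at 3 d.

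In the thin filament, ACTC1, the cardiac actin that is also made in developing skeletal muscle, had 909, 866 and 959 FPKM at 0 d, followed by 490.2, 509 and 518 at 3 d, by 251, 231 and 251 at 6 d and by 232, 219 and 249 at 9 d. The days 0, 3 and 6 d stepped down without overlap, and 6 and 9 d overlapped. The fold change at 3 d was -0.85 and was not called, while ACTC1 fell at 6 d, a log2 fold change of -1.90 (SE 0.0620, limma adjusted p = 2.06e-08), and at 9 d by 1.97. Its fall from 3 d to 6 d, 1.05, was not called under rescaling (-0.99). ACTA1, the adult skeletal actin, had 38.4, 38.8 and 39.7 FPKM at 0 d, followed by 13.8, 14.9 and 14.5 at 3 d, by 9.22, 8.11 and 8.28 at 6 d and by 12.1, 10.3 and 17.4 at 9 d. Levels at 0 d were highest and the 6 d libraries lowest. It fell at all of 3 d (-1.43), 6 d (-2.18) and 9 d (-1.58), and since these actins are close in sequence, the split of reads between them is uncertain. NEB, the giant ruler protein nebulin, had 123, 135 and 104 FPKM at 0 d, followed by 104, 99.2 and 87.96 at 3 d, by 34.6, 28.6 and 31.9 at 6 d and by 40.9, 37.8 and 39.7 at 9 d. The 3 d libraries were below those of 0 d by a narrow margin, and the 6 and 9 d libraries were far below both. NEB had a log2 fold change of -0.31 at 3 d (limma adjusted p = 0.0328, under the fold needed for a call) and fell at 6 d, a log2 fold change of -1.92 (SE 0.107, limma adjusted p = 5.60e-07). A call of lower was also made for NEB at 9 d (-1.61).

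Of the troponins, which make the filament sensitive to calcium, TNNC1, slow and cardiac troponin C, had 75.7, 77.1 and 89.9 FPKM at 0 d, followed by 19.5, 19.1 and 21.02 at 3 d, by 24.1, 24.6 and 23.9 at 6 d and by 24.4, 25.1 and 30.8 at 9 d. The 0 d libraries were highest, and the 3 d libraries lay just below those of 6 d. TNNC1 fell at 3 d, a log2 fold change of -2.02 (SE 0.0977, limma adjusted p = 6.92e-08), and was also called lower at 6 d (-1.73) and 9 d (limma adjusted p = 1.41e-06). TNNT1, slow troponin T, had 18.5, 17.8 and 27.1 FPKM at 0 d, followed by 2.25, 0 and 1.68 at 3 d, by 5.06, 7.34 and 7.11 at 6 d and by 8.25, 8.26 and 8.08 at 9 d. All 3 d libraries were below those of 6 d, and 3 d replicate 2 was listed at 0, which may be a failed estimate. TNNT1 was called lower at 3 d, a log2 fold change of -4.80 (SE 0.949, limma adjusted p = 0.0017), and higher from 3 d to 6 d with 3.12. Without that library the values of TNNT1 were -3.35 at 3 d and 1.67 from 3 d to 6 d, both still called. Without it TNNT1 was also called lower at 6 d (-1.68, limma adjusted p = 0.000203) and at 9 d (-1.33, limma adjusted p = 0.000856), against limma adjusted p = 0.211 and 0.312 with it. A pseudocount of 1 also gave calls of lower at 6 d (-1.55) and 9 d (-1.24). The rise from 3 d to 6 d was not called without 6 d replicate 2 (limma adjusted p = 0.0544) or 6 d replicate 3 (limma adjusted p = 0.0529).

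TNNT2, cardiac troponin T that is also found in immature skeletal muscle, had 9.45, 9.68 and 9.5 FPKM at 0 d, followed by 2, 2.59 and 2.91 at 3 d, by 2.47, 2.35 and 2.67 at 6 d and by 1.32, 1.05 and 1.53 at 9 d. Levels at 0 d were highest and the 9 d libraries lowest. It fell by 1.91, 1.89 and 2.80 at 3, 6 and 9 d, and from 6 d to 9 d its change of -0.90 was not called but reached -1.02, with a call, without 9 d replicate 3. TNNT3, fast troponin T, had 2.22, 3.78 and 2.43 FPKM at 0 d, followed by 2.59, 2.33 and 3.02 at 3 d, by 1.81, 1.07 and 0.91 at 6 d and by 1.27, 0.94 and 1.71 at 9 d. The 0 and 3 d libraries overlapped and both lay above the 6 d libraries. It was called lower at 6 d (-1.11), at 9 d (-1.05) and from 3 d to 6 d (-1.06). These calls depended on single libraries. At 6 d the value was -0.89 without 0 d replicate 2 and -0.92 without 6 d replicate 3, at 9 d it was -0.82 without 0 d replicate 2 and -0.85 without 9 d replicate 2, and no such value was called. From 3 d to 6 d it was -0.96 without 3 d replicate 3, -0.98 without 6 d replicate 2 and -0.87 without 6 d replicate 3, again with no call. Under rescaling TNNT3 was at -0.97 at 6 d and -0.88 at 9 d, and with a pseudocount of 1 at -0.75, -0.72 and, from 3 d to 6 d, -0.70, and was not called.

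TNNI1, slow troponin I, had 2.29, 2.27 and 2.7 FPKM at 0 d, followed by 0.4, 0.83 and 0.49 at 3 d, by 0.95, 0.62 and 0.88 at 6 d and by 0.85, 0.71 and 0.68 at 9 d. The 0 d libraries were above all others, which overlapped. TNNI1 fell by 1.95, 1.47 and 1.57 at 3, 6 and 9 d, but with a pseudocount of 1 the values at 6 and 9 d were -0.91 and -0.97 and were not called. TNNC2, fast troponin C, ranged from 0.09 to 1.13 FPKM and did not reach a day mean of 1. Calls of lower were made at 3 d (-2.14), 6 d (-2.09) and 9 d (-1.81). With a pseudocount of 1 the values of TNNC2 were -0.78, -0.77 and -0.70 and were not called. TNNI2, fast troponin I, ranged from 0.1 to 0.19 FPKM and was not called in any comparison, with 0.16 at 3 d.

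Among Z-disc and scaffold genes, DES, the intermediate filament protein desmin, which smooth muscle also makes, had 372, 388 and 419.9 FPKM at 0 d, followed by 125, 144 and 145 at 3 d, by 303, 310.2 and 329 at 6 d and by 217, 205 and 199 at 9 d. The days did not overlap, with 0 d highest, 3 d lowest and 6 d above 9 d. DES fell at 3 d, a log2 fold change of -1.51 (SE 0.0725, limma adjusted p = 6.44e-08), rose from 3 d to 6 d by 1.19 (limma adjusted p = 5.34e-07), and was not called at 6 d (-0.32) or 9 d (-0.93) against 0 d. Its neighbour on chromosome 2, SPEG, a muscle kinase from the list of other sarcomere genes, had 8.64, 9.71 and 8.9 FPKM at 0 d, followed by 1.85, 2.08 and 1.97 at 3 d, by 7.93, 8.35 and 7.45 at 6 d and by 5.81, 5.19 and 5.54 at 9 d. SPEG, named after its values were seen, was likewise lowest at 3 d, with log2 fold changes of -2.15 against 0 d and 1.95 from 3 d to 6 d. CSRP3, the muscle LIM protein, had 7.2, 7.04 and 9.92 FPKM at 0 d, followed by 0, 0.44 and 0.38 at 3 d, by 2.69, 4.74 and 5.24 at 6 d and by 5.01, 3.15 and 5.26 at 9 d. The 3 d libraries were lowest, replicate 1 being listed at 0, and the 6 and 9 d libraries overlapped. It was called lower at 3 d, a log2 fold change of -4.77 (SE 0.568, limma adjusted p = 5.33e-05), and higher from 3 d to 6 d (3.81), where a pseudocount of 1 gave -2.83 and 2.02. Leaving out 3 d replicate 1 gave -3.98 and 3.03 for CSRP3, and both calls stayed.

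KLHL41, a stabiliser of nebulin, had 77.2, 72.1 and 79.1 FPKM at 0 d, followed by 39.8, 42.1 and 44.3 at 3 d, by 22.3, 21.8 and 22.5 at 6 d and by 21.3, 22.1 and 24.5 at 9 d. The 3 d libraries lay between those of 0 d and the overlapping 6 and 9 d libraries. It was not called at 3 d (-0.85) and fell at 6 d, a log2 fold change of -1.77 (SE 0.0682, limma adjusted p = 5.22e-08), and at 9 d by 1.75. MYPN, which links nebulin and actinin, had 6.61, 8.09 and 6.75 FPKM at 0 d, followed by 3.09, 2.34 and 3.23 at 3 d, by 1.1, 2.01 and 2.09 at 6 d and by 1.37, 1.64 and 2.33 at 9 d. The 0 d libraries were highest and those of 6 and 9 d overlapped. It fell by 1.29, 2.03 and 1.97 at 3, 6 and 9 d.

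LDB3, a Z-disc adaptor, had 3.41, 3.54 and 1.47 FPKM at 0 d, followed by 0.39, 0.53 and 1 at 3 d, by 0.64, 1.2 and 0.47 at 6 d and by 1.19, 0.5 and 0.52 at 9 d. One 0 d library, replicate 3, was closer to the later days than to the other 0 d libraries but still above them all. It was called lower at 3 d (-1.96), 6 d (-1.73) and 9 d (-1.80). The call at 6 d was lost without 0 d replicate 1 (-1.55), 0 d replicate 2 (-1.52), 6 d replicate 1 (-1.66) or 6 d replicate 3 (-1.47), and the call at 9 d without 0 d replicate 1 (-1.61) or 9 d replicate 2 (limma adjusted p = 0.0514). XIRP1, an actin-binding protein, had 1.26, 2.14 and 2.77 FPKM at 0 d, followed by 0.46, 0.46 and 0.5 at 3 d, by 1.74, 1.04 and 0.46 at 6 d and by 2.76, 1.37 and 2.06 at 9 d. At 3 d the libraries were close together at the low end, and the 6 d libraries overlapped every other day. It was called lower at 3 d, a log2 fold change of -1.85 (SE 0.425, limma adjusted p = 0.00426), and had -0.97 at 6 d and 0.02 at 9 d. Without 6 d replicate 1 XIRP1 was called lower at 6 d (-1.37) and higher from 6 d to 9 d (1.38), and without 6 d replicate 3 higher from 3 d to 6 d (1.34). MYOZ2, a calcineurin-binding Z-disc protein, had 3.42, 0.84 and 1.08 FPKM at 0 d, followed by 0.26, 0.92 and 0.91 at 3 d, by 0.75, 0.22 and 0.9 at 6 d and by 0.91, 0.78 and 0.98 at 9 d. The highest value was 0 d replicate 1, the days overlapped, and MYOZ2 was not called, with -1.13 (limma adjusted p = 0.143) at 3 d.

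The joined rows are not counted above. The row of TTN and LOC112442545 had 4554, 7269.6 and 3127 FPKM at 0 d, followed by 4529.9, 2777 and 3156 at 3 d, by 1848, 1379 and 1218 at 6 d and by 1415, 1085 and 1137 at 9 d. The 0 and 3 d libraries overlapped and lay above those of 6 and 9 d. The row was called lower at 6 d (-1.69) and 9 d (-1.96), and at 3 d had -0.46 (limma adjusted p = 0.226). The row of STARD3 and TCAP had between 4.23 and 7.46 FPKM, and the row of CHRNG, LOC101906781 and EIF4E2 between 29.1 and 50.3 FPKM, and neither was called in any comparison. The share of each gene in a joined row cannot be told apart.

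For excitation and calcium, RYR1, the release channel of the sarcoplasmic reticulum, had 57.99, 62.2 and 50.7 FPKM at 0 d, followed by 35.9, 36.8 and 33.7 at 3 d, by 11.04, 10.1 and 9.59 at 6 d and by 14.02, 14.4 and 13.9 at 9 d. The days 0, 3 and 6 d stepped down without overlap and 9 d lay slightly above 6 d. The change at 3 d was -0.68 and not called, and RYR1 fell at 6 d, a log2 fold change of -2.46 (SE 0.0840, limma adjusted p = 2.62e-08), and was also called lower at 9 d (limma adjusted p = 1.25e-07). ATP2A1, the fast-fiber calcium pump, had 40.3, 39.3 and 40.4 FPKM at 0 d, followed by 27.6, 29.1 and 29.5 at 3 d, by 10.1, 10.2 and 10.3 at 6 d and by 8.41, 7.34 and 8.92 at 9 d. It stepped down on each day without overlap. ATP2A1 was not called at 3 d (-0.47), and fell by 1.96 at 6 d and 2.27 at 9 d (limma adjusted p = 1.84e-08). CACNA1S, the voltage sensor of the muscle membrane, had 2.11, 2.2 and 2.15 FPKM at 0 d, followed by 0.84, 0.95 and 0.96 at 3 d, by 0.53, 0.5 and 0.47 at 6 d and by 0.56, 0.54 and 0.67 at 9 d. Levels at 0 d were highest and the 3 d libraries were above those of 6 and 9 d. It fell by 1.15, 1.91 and 1.71 at 3, 6 and 9 d, and with a pseudocount of 1 the values at 3 d (-0.72) and 9 d (-0.99) were not called. CASQ2, a calcium store protein of slow fibers and heart, had 23.8, 25.8 and 21.7 FPKM at 0 d, followed by 12.7, 8.61 and 6.66 at 3 d, by 7.04, 14.8 and 6.7 at 6 d and by 4.05, 5.24 and 7.19 at 9 d. The 0 d libraries were highest and the later days overlapped. CASQ2 fell by 1.39, 1.41 and 2.13 at 3, 6 and 9 d.

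**Figure D4:**
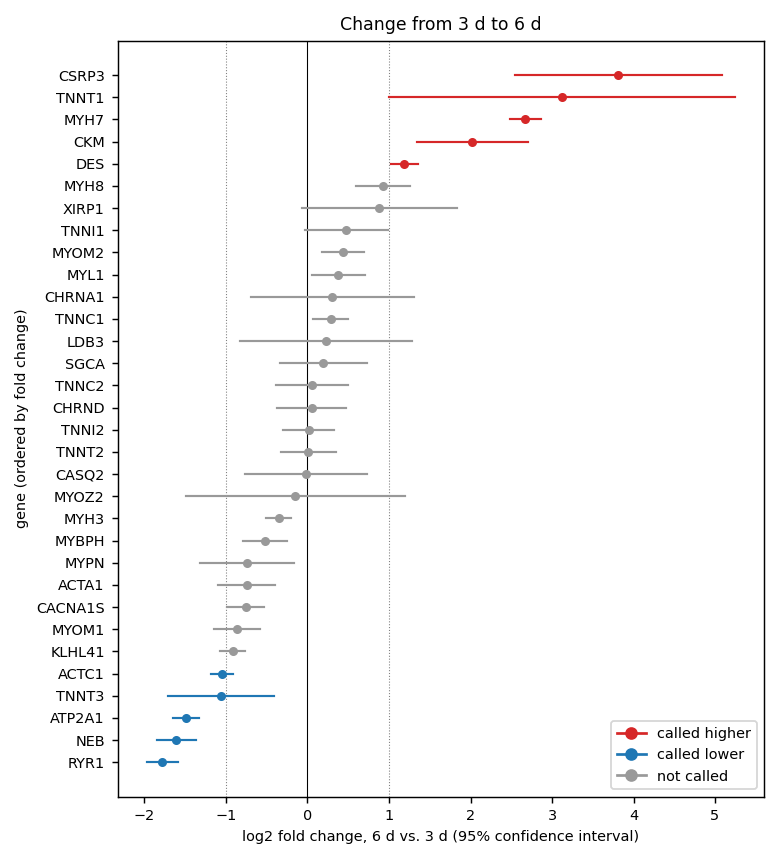
Log2 fold change from 3 d to 6 d (horizontal axis) for each of the 32 genes tested (vertical axis), with bars for the 95% confidence interval from limma. MYH7, TNNT1, CSRP3, DES and CKM lie to the right and ACTC1, NEB, TNNT3, RYR1 and ATP2A1 to the left.

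At the membrane, CHRNA1, the alpha subunit of the acetylcholine receptor, had 15.4, 5.64 and 15.4 FPKM at 0 d, followed by 2.28, 3.95 and 2.55 at 3 d, by 4.91, 2.07 and 4.34 at 6 d and by 2.38, 2.1 and 1.39 at 9 d. In 0 d replicate 2 the level was well below that of the other 0 d libraries, yet above every later library. Calls of lower were made at 3 d (-1.92), 6 d (-1.61) and 9 d (-2.47), and the call at 6 d was lost without 0 d replicate 1 (-1.37), 0 d replicate 3 (-1.37) or 6 d replicate 2 (-1.24). CHRND, the delta subunit, had 6.56, 7.19 and 6.49 FPKM at 0 d, followed by 2.6, 3.31 and 2.8 at 3 d, by 3.22, 2.59 and 3.22 at 6 d and by 2.04, 1.21 and 2.08 at 9 d. Levels at 0 d were highest and the 9 d libraries lowest. It was called lower on each day, by 1.19, 1.14 and 1.90, but the call at 6 d ended under rescaling, and with a pseudocount of 1 the values at 3 d (-0.99) and 6 d (-0.95) were not called. SGCA, alpha-sarcoglycan of the dystrophin complex, had 8.26, 11.5 and 10.6 FPKM at 0 d, followed by 2.27, 3.18 and 2.18 at 3 d, by 2.5, 3.2 and 3 at 6 d and by 2.19, 1.37 and 2.69 at 9 d. The 0 d libraries were highest and the later days overlapped. SGCA was called lower at 3 d (-1.95), at 6 d (-1.76) and at 9 d, there with a log2 fold change of -2.26 (SE 0.241, limma adjusted p = 6.10e-05).

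For energy supply, CKM, the muscle creatine kinase, had 132, 136 and 130.3 FPKM at 0 d, followed by 2.51, 5.05 and 2.28 at 3 d, by 19.2, 10.9 and 10.1 at 6 d and by 29.1, 23.2 and 27.7 at 9 d. Its 3 d libraries were lowest, and 6 and 9 d followed in order without overlap, all far below 0 d. CKM was 41.8-fold lower at 3 d than at 0 d, a log2 fold change of -5.39 (SE 0.302, limma adjusted p = 2.01e-07), and stood at -3.36 at 6 d and -2.32 at 9 d. It rose from 3 d to 6 d, a log2 fold change of 2.02 (SE 0.302, limma adjusted p = 0.000318). The rise from 6 d to 9 d, a log2 fold change of 1.05 (SE 0.302, limma adjusted p = 0.035), depended on single libraries, since it was not called without 0 d replicate 1 (limma adjusted p = 0.0506), 6 d replicate 2 (0.93), 6 d replicate 3 (0.87), 9 d replicate 1 (0.98), 9 d replicate 2 (limma adjusted p = 0.0595) or 9 d replicate 3 (limma adjusted p = 0.0899). With a pseudocount of 1 it was 0.99 and was not called, nor was CKM called there with the replicate number as a block (limma adjusted p = 0.0545).

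Ratios within a library do not depend on its scaling, and the pairs were chosen after the values were seen. MYH7 over MYH3, slow over embryonic heavy chain per length, was 4.23, 4.26 and 4.32 at 0 d, followed by 0.529, 0.572 and 0.655 at 3 d, by 4.89, 5.14 and 4.66 at 6 d and by 5.52, 5.95 and 5.22 at 9 d. The ratio was under 1 only at 3 d. MYL2, the slow regulatory light chain, over MYLPF, its fast counterpart, was 0.499, 0.489 and 0.507 at 0 d, followed by 0.0355, 0.0310 and 0.0362 at 3 d, by 0.489, 0.484 and 0.456 at 6 d and by 0.488, 0.544 and 0.461 at 9 d. In the 3 d libraries it was lower than in all others. MYH3 over MYH8 was 12.6, 13.7 and 9.83 at 0 d, followed by 4.74, 3.99 and 4 at 3 d, by 1.68, 1.82 and 1.55 at 6 d and by 3.21, 3.66 and 3.68 at 9 d. This ratio was highest at 0 d and lowest at 6 d. ACTC1 over ACTA1 was 23.7, 22.3 and 24.2 at 0 d, followed by 35.6, 34.2 and 35.7 at 3 d, by 27.3, 28.5 and 30.3 at 6 d and by 19.2, 21.2 and 14.3 at 9 d. That ratio was highest at 3 d. TNNT1 over TNNT3, slow over fast troponin T, was 8.33, 4.72 and 11.1 at 0 d, followed by 0.869, 0 and 0.556 at 3 d, by 2.80, 6.86 and 7.81 at 6 d and by 6.50, 8.79 and 4.73 at 9 d. It was under 1 only at 3 d, where replicate 2 has TNNT1 listed at 0. TNNI1 over TNNI2 was 19.1, 18.9 and 22.5 at 0 d, followed by 2.35, 5.93 and 3.77 at 3 d, by 7.92, 3.26 and 6.29 at 6 d and by 8.5, 5.07 and 5.67 at 9 d. It was highest at 0 d, and the later days overlapped. TNNC1 over TNNC2 was 84.1, 89.7 and 79.5 at 0 d, followed by 122, 147 and 162 at 3 d, by 268, 123 and 141 at 6 d and by 129, 157 and 118 at 9 d. Unlike the other slow over fast pairs it was lowest at 0 d, and the later days overlapped. TNNI2 and TNNC2 were low, so the ratios over them are uncertain.

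**Figure D5:**
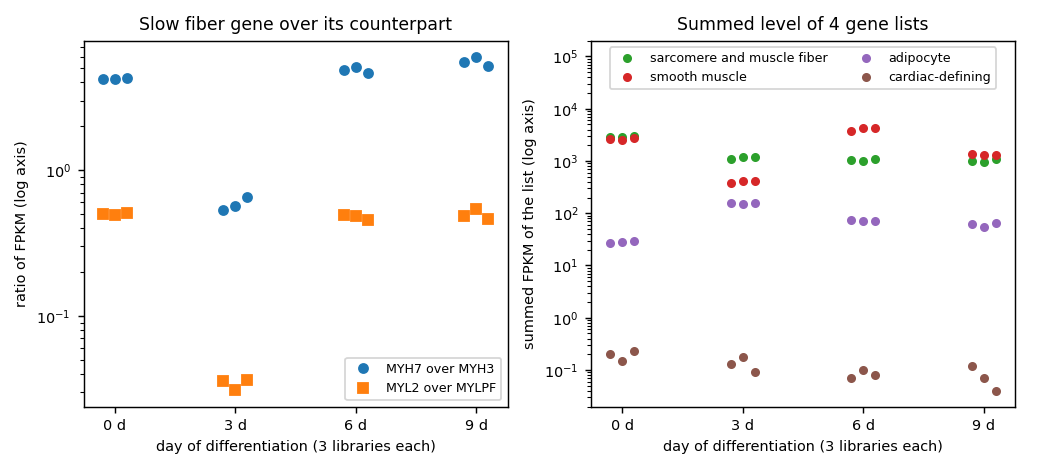
Ratios of FPKM within each library for MYH7 over MYH3 and MYL2 over MYLPF, and summed FPKM of the 33 genes and of smooth muscle, adipocyte and cardiac-defining lists, against day, with points for libraries. Both ratios and the smooth muscle sum are lowest at 3 d, and the adipocyte sum is highest there.

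Other genes of the same pathways were taken from lists of names, also chosen with earlier results of these data known. Of 28 other sarcomere genes tested out of 41 listed, 26, 22 and 21 were called lower at 3, 6 and 9 d against 0 d and 0 higher by limma, with 0 higher at an unadjusted p under 0.05, and their medians were -1.71, -1.60 and -1.62. Among the genes called there, the largest fall at 3 d was that of MYL2 (-4.92) and the largest at 6 d that of MYBPC2 (-3.84). Of 14 other excitation and calcium genes tested out of 17, 11, 7 and 9 were called lower and 0 higher by limma, with 0 higher at an unadjusted p under 0.05, led by HRC at 3 d (-3.23) and SLN at 6 d (-2.80) and 9 d (-2.84). Of 17 other membrane and synapse genes, 7, 5 and 7 were called lower and 0 higher by limma, with 1, 0 and 0 higher at an unadjusted p under 0.05, led by SGCD at 3 d (-3.37) and RAPSN at 6 d (-1.97) and 9 d (-2.45). Of 10 other energy genes tested out of 12, 5, 4 and 4 were called lower and 0 higher by limma, with 2, 0 and 1 higher at an unadjusted p under 0.05, led by COX6A2 at 3 d (-4.12), MB at 6 d (-2.69) and AMPD1 at 9 d (-2.07). MYBPC2, HRC and COX6A2 were listed at 0 in at least 1 library of those days, so their fold changes and their place as the largest falls are uncertain.

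Of 12 myogenic regulators and fusion genes tested out of 14, 6 were called lower on each day and 0 higher by limma, with 1, 0 and 0 higher at an unadjusted p under 0.05. MYOD1, a master regulator of the myogenic lineage, had 239.8, 260.2 and 303 FPKM at 0 d, followed by 107, 113 and 108 at 3 d, by 51.9, 33.97 and 57.3 at 6 d and by 56.6, 43.2 and 63.8 at 9 d. MYOG, which drives terminal differentiation, had 10.3, 10.5 and 11.2 FPKM at 0 d, followed by 3.43, 4.48 and 4.4 at 3 d, by 3.1, 2.92 and 2.96 at 6 d and by 2.42, 2.11 and 2.88 at 9 d. Both fell on every day against 0 d, MYOD1 by 1.29, 2.51 and 2.31 and MYOG by 1.37, 1.80 and 2.08. MYF5, a marker of myoblasts, had 14.2, 13.9 and 16.1 FPKM at 0 d, followed by 10.9, 10.9 and 12.3 at 3 d, by 6.5, 7.57 and 8.68 at 6 d and by 4.64, 4.52 and 7.95 at 9 d. MYF5 was called lower at 9 d (-1.40), and MYMK, which fuses myoblasts, was called lower at 3 d (-1.23), 6 d (-1.64) and 9 d (-1.91). PAX7 had no row under that name in the mRNA table.

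Markers of other cell types moved over the same days, and their part in the results was not tested. All 10 cardiac-defining genes were near 0, with a summed level from 0.04 to 0.23 FPKM, and NPPA, NPPB, MYL7, NKX2-5 and TBX5 were listed at 0 in all 12 libraries. MYH6 was the most abundant of the 10 by the mean over the 12 libraries, but HAND2 was above it in each 3 d library. MYH6, MYBPC3 and TNNI3 are also among the other sarcomere genes. Of 12 smooth muscle genes tested out of 14, 8 were called lower at 3 d, 4 higher at 6 d and 5 lower at 9 d, and the summed level was 2628, 2474 and 2777 FPKM at 0 d, followed by 375, 408 and 411 at 3 d, by 3799, 4253 and 4215 at 6 d and by 1390.1, 1325 and 1309 at 9 d. The most abundant was ACTA2 in each library of 0, 6 and 9 d, and CALD1 in each of 3 d. MYH11 of this list went the other way at 3 d, without a call. Its levels were 60.6, 59.7 and 51.2 FPKM at 3 d, against 23.7, 26.3 and 19.8 at 0 d. The smooth muscle sum was lowest at 3 d and highest at 6 d, as the level of DES was lowest at 3 d. Of 13 adipocyte genes tested out of 14, 8, 7 and 7 were called higher and 3 lower at 3 d, and the summed level was 26.5, 28.6 and 29.01 FPKM at 0 d, followed by 156, 150.3 and 158 at 3 d, by 74.3, 72.3 and 71.5 at 6 d and by 63.6, 53.4 and 65.9 at 9 d. The most abundant was CIDEA in each library of 0 d, FABP4 in each of 3 and 6 d and LEP in each of 9 d. The defining markers ADIPOQ and CEBPA reached at most 1.64 and 0.26 FPKM, and PLIN1 was listed only in a joined row. Both low markers were still higher at 3 d than at 0 d without overlap. ADIPOQ had 0.4, 0.86 and 0.91 FPKM at 3 d against 0.01, 0.03 and 0.03 at 0 d. CEBPA had 0.18, 0.22 and 0.26 against 0.08, 0.08 and 0.12. Of 8 fibroadipogenic precursor genes tested out of 10, 4, 3 and 2 were called higher and 2, 2 and 1 lower, and the summed level was 119562, 116352 and 123688 FPKM at 0 d, followed by 167345, 173255 and 175172 at 3 d, by 134906, 130717 and 130441 at 6 d and by 222999, 212260 and 225435 at 9 d, with COL3A1 the most abundant in each library and DLK1 at most 0.13.

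Circular RNAs, made from exons or introns, were listed for 13 of the 36 genes in 22 of 14070 rows. The most abundant, circRNA1837 of NEB (chromosome 2, 44517487 to 44523389, plus strand, 4 exons, build ARS-UCD1.2 by the study's methods, although the submitters' notes also name another build), had 15, 24 and 27 back-spliced reads at 0 d, followed by 22, 34 and 0 at 3 d, by 5, 7 and 9 at 6 d and by 10, 0 and 11 at 9 d. At 6 and 9 d no library had more than 11 reads, and replicates of 3 d ranged from 0 to 34. The other 21 had from 1 to 6 reads each, and 6 of the rows were of TTN.

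Muscle miRNAs are shown for their tie to the set, since miR-208b lies in an intron of MYH7 and the others are made in striated muscle. Capitals mark the seed, bases 2 to 8, in the alphabet of the deposited table, which lists this miR-133a and this miR-133b with 1 base added at the end.
miR-208b: aTAAGACGaacaaaaggtttgt
miR-499: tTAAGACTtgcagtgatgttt
miR-206: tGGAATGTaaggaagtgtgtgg
miR-1: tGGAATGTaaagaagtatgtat
miR-133a: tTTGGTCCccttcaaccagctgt
miR-133b: tTTGGTCCccttcaaccagctat
Reads of miR-208b were 5, 9 and 0 at 0 d and 0 in every library of 3, 6 and 9 d. Those of miR-499 were 45 in 6 d replicate 3 and 0 in the other 11 libraries. The normalized level of miR-206 was 58238, 40087 and 119332 at 0 d, followed by 46239, 46011 and 59065 at 3 d, by 23469, 20722 and 26277 at 6 d and by 23094, 28538 and 36047 at 9 d. In 0 d replicate 3 it was far above the rest, and the libraries of 0 and 3 d overlapped, all above those of 6 and 9 d. For miR-133b it was 26752, 22543 and 28326 at 0 d, followed by 18763, 18679 and 18059 at 3 d, by 12043, 12639 and 6889.7 at 6 d and by 7025, 8437 and 7984 at 9 d. Days 0, 3 and 6 d stepped down without overlap, and 6 and 9 d overlapped. For miR-133a it was 13519, 12759 and 10113 at 0 d, followed by 14309, 14999 and 13729.6 at 3 d, by 10840.2, 11028 and 13283 at 6 d and by 8848, 10345 and 9669 at 9 d. Here 3 d was highest by a narrow margin and 0 d overlapped 6 and 9 d. For miR-1 it was 1089, 928 and 1592 at 0 d, followed by 1224, 1226 and 1053 at 3 d, by 459.5, 346 and 1302 at 6 d and by 421, 425 and 393 at 9 d. The libraries of 0 and 3 d overlapped, and 6 d replicate 3 was far above the other libraries of 6 and 9 d.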

How the data were processed

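The authors sequenced RNA of 12 libraries, 3 at each of 4 days. The deposited mRNA values are FPKM made by the authors; the deposited circRNA table holds back-spliced read counts and signal normalized to library size, and the deposited miRNA table holds estimated counts, since reads that match several miRNAs were divided, and a normalized signal. The submitters' processing notes name HISAT2 2.0, StringTie 1.3.0, Bowtie 0.12.2 and a mouse build, and the labels describe poly(A) selection. The study's methods instead name other versions, the cattle build ARS-UCD1.2 and depletion of rRNA. The deposited mRNA values do not carry the depth per library. A further 12 columns of values, those of lncRNAs, were not used.

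limma 3.58.1 in R 4.3.3, with Python 3.11.15, pandas 2.3.3 and NumPy 2.4.6, was fitted to log2(FPKM + 0.1) of all rows with a mean of at least 0.1 FPKM, with a mean for each day over all 12 libraries and a trend in the prior variance, and p-values were adjusted by Benjamini-Hochberg within each of 5 comparisons. The study's methods state a count test, which FPKM does not allow. The fit was tested on simulated data. Every gene of the set is named, those reaching 1 FPKM with all library values. In the lists of other pathway genes, the called gene with the largest rise and fall against 0 d, without overlap between the libraries, is named, and MYOD1, MYF5, MYOG, PAX7 and MYMK in any case. One gene that this rule names is not reported here. Members and lists were chosen with earlier results of these data known. Alternatives were the pseudocount, the filter, rescaling, fewer libraries in the fit, a replicate block, the prior variance and leaving out each library. Symbols and gene order came from RefSeq (ARS-UCD2.0), where all 36 names matched.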

Additional observations from a re-analysis of the deposited data

How the results depend on the processing

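The counts of genes called lower against 0 d stayed within 1.5 times under every alternative, and 0 genes were called higher against 0 d by limma under any. Leaving out each library gave 21 to 21 called lower at 3 d, while 6 d ranged from 23 to 26 and 9 d from 22 to 25, and from 3 d to 6 d there were 4 to 5 higher and 4 to 5 lower. From 6 d to 9 d, the 1 gene called higher, CKM, became 0 with a pseudocount of 1 and ranged from 0 to 2 over the left-out libraries. The 0 called lower from 6 d to 9 d became 1, MYH8, with a pseudocount of 0.01 and ranged from 0 to 1. The causes were not tested. The median log2 fold change from 3 d to 6 d lay between -0.01 (without 6 d replicate 2) and 0.09 over all alternatives, and that from 6 d to 9 d between -0.0043 (without 9 d replicate 3) and 0.15, so that neither kept its sign. Of 150 results for the 30 genes that reached 1 FPKM, a pseudocount of 1 changed the call of 12 (and of TNNC2 in 3 more), rescaling of 5 and leaving out a library of 15. Rescaling moved the split of all calls at 9 d against 0 d from 525 higher and 1150 lower to 668 and 822.

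With the replicate number as a block (replicate block), CKM from 6 d to 9 d was the 1 call of 150 that differed (limma adjusted p = 0.0545), so that 0 genes were called higher there, and the other counts were 21, 25 and 24 lower against 0 d and 5 higher and 5 lower from 3 d to 6 d. Deviations of same-numbered libraries from their day means had low correlations. The 18 pairs ranged from -0.098 to 0.112 with a median of 0.022, 2 of them over 0.1. Pairs with different numbers ranged from -0.19 to 0.183 with a median of -0.011. Of 12 libraries, 5 correlated best with their own number. These values showed no clear tie between same-numbered libraries, but deviations from means of 3 libraries are a weak check. The study states that cells of the same batch were sequenced on the different days.

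Counting the joined rows as members, an alternative chosen after seeing the data, gave 26 lower at 6 d, 25 at 9 d and 6 from 3 d to 6 d. Summing rows that share a symbol was not run, since each gene had at most 1 row. FPKM carries no depth, so the precision of low values is unknown from it.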
